A study of Mus musculus with 18 samples.

Results

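The contrast between pluripotent cells and granulocyte-macrophage progenitors (GMPs) was described on 4 mouse arrays. The pluripotent side held 3 arrays, 1 each of embryonic stem cells (WT ESCs), an induced pluripotent line made from fibroblasts (Fibroblast-iPSC) and one made from GMPs (GMP-iPSC). Genes were kept where all 3 pluripotent arrays lay at least 1 log2, a 2-fold difference in signal, to the same side of the single GMP array. Of 22180 genes, 1388 lay lower in all 3 lines and are called GMP-high (6.26% of all genes), and 1331 lay higher and are called pluripotent-high (6% of all genes). These counts follow from the rule, and with 1 array per condition no difference between the lines and GMPs was tested.

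The study asked whether small molecules speed the conversion of somatic cells into iPSCs, and its series holds 18 arrays. All cells are labelled with the strain Black6-129X1/SvJ. The Fibroblast-iPSC line was derived with 96 hours and the GMP-iPSC line with 48 hours of OKSM (Oct4, Klf4, Sox2 and Myc) plus AGi, which is ascorbic acid with a GSK3 inhibitor. Used beside these were embryonic fibroblasts of the reprogrammable mouse without doxycycline (MEF), bulk cultures of the same fibroblasts that expressed OKSM alone or with AGi on days 2, 4, 6, 8, 10 and 12, and Thy1+ cells sorted on day 3 of OKSM. The GMPs carry no induction in their label, and the labels do not say how they were sorted or from how many animals. The 3 pluripotent arrays are 3 different lines and not replicates of a condition, so the range among them mixes line, culture and array. In such bulk samples fewer cells of a type and less RNA per cell cannot be told apart.

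GMPs are bone marrow progenitors that give rise to neutrophils, monocytes and related cells. Their identity rests on transcription factors such as PU.1 and the C/EBP proteins, on receptors for colony-stimulating factors, and on the early production of the enzymes stored in granules. Pluripotent cells grow as epithelial colonies, are maintained by a network around Oct4, Sox2 and Nanog, and express microRNAs of the miR-290 cluster. A GMP that becomes an iPSC therefore has to silence one programme and open the other, while a fibroblast starts from a different set of genes.

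The microRNAs among the members are shown first, because their mature sequences are short enough to print. Of 478 microRNA genes measured, 12 were GMP-high and 10 pluripotent-high, smaller shares than the 6.26% and 6% of all genes. The arrays read the genes or precursors of microRNAs, not the mature forms. A mature sequence from RefSeq (GRCm38.p6) was found for 18 of these 22 genes. The blood-cell microRNAs miR-142a, miR-146b and miR-181b are printed against miR-290a, the head of the embryonic cluster, and miR-18b and miR-363 of an X-linked cluster, with the seed (bases 2 to 8), which pairs with target messages, in capitals.
mmu-miR-142a-5p: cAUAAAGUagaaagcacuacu
mmu-miR-142a-3p: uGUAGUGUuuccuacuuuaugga
mmu-miR-146b-5p: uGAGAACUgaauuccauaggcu
mmu-miR-181b-5p: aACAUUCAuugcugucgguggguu
mmu-miR-290a-5p: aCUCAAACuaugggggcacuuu
mmu-miR-290a-3p: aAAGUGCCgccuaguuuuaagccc
mmu-miR-18b-5p: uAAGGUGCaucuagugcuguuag
mmu-miR-363-3p: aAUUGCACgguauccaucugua

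No seed in this set is shared between a GMP-high and a pluripotent-high microRNA. Mir142, the gene of the pan-haematopoietic miR-142, read 6.37 in ESCs, 8.46 in the Fibroblast-iPSC line, 7.50 in the GMP-iPSC line and 10.62 in GMPs (all values are log2 signal). The lines were spread by over 2 log2 and all lay below GMPs, while MEFs read 6.29. Mir181b-1 read 4.17, 4.61 and 4.36 in the lines in the same order, 7.83 in GMPs and 7.59 in MEFs, so both starting cells stood above the lines. Mir146b lay between 5.86 and 5.93 in the lines and at 7.62 in GMPs.

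Mir290a showed the opposite order. It read 8.60, 8.97 and 8.27 in ESCs, Fibroblast-iPSC and GMP-iPSC, against 3.82 in GMPs and 4.27 in MEFs. The precursor genes Mir18b (7.47, 5.68 and 5.76 against 4.24 in GMPs) and Mir363 (8.49, 6.28 and 5.72 against 4.33) were read highest in ESCs, by over 1.5 log2 above both iPSC lines. Mir669i, Mir669j and Mir669k were pluripotent-high as well, with GMP values of 4.18, 5.81 and 5.45. Of 14 measured genes of the haematopoietic microRNA list, 4 were GMP-high (28.6%, beside 6.26% of all genes), and 13 more were not measured. Of 21 measured from the list for pluripotency, 3 were pluripotent-high (14.3%, beside 6%), and 14 more were not measured. The fourth of the haematopoietic ones, Mir221, sat at the edge of the rule (−1.03 as deposited, −0.96 after a further quantile normalization).

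By size, the GMP-high side reached further. At least 2 log2 separated all 3 lines from GMPs in 584 GMP-high and 511 pluripotent-high genes, at least 4 log2 in 122 and 58, and at least 6 log2 in 15 and 7. At the edge of the rule, Panx1, Gm10353 and Dnajc12 lay just inside on the GMP-high side and Tmem129, Pter and Mrtfa just outside. Ttll6, Deptor and Foxn4 lay just inside on the pluripotent-high side and Socs3, Zfp566 and Angel1 just outside, and all 12 of these genes round to a difference of 1.0 in size. Hybridisation controls, which are added to the sample and come from no cell, differed between a line and GMPs by −0.05 to 0.52 over 18 probe sets, with a median of 0.21, and none passed 1 log2. Array medians lay between 6.32 and 6.46, so a reading near 6 or below lies under the middle of the array, where background weighs most and differences are compressed.

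**Figure D1:**
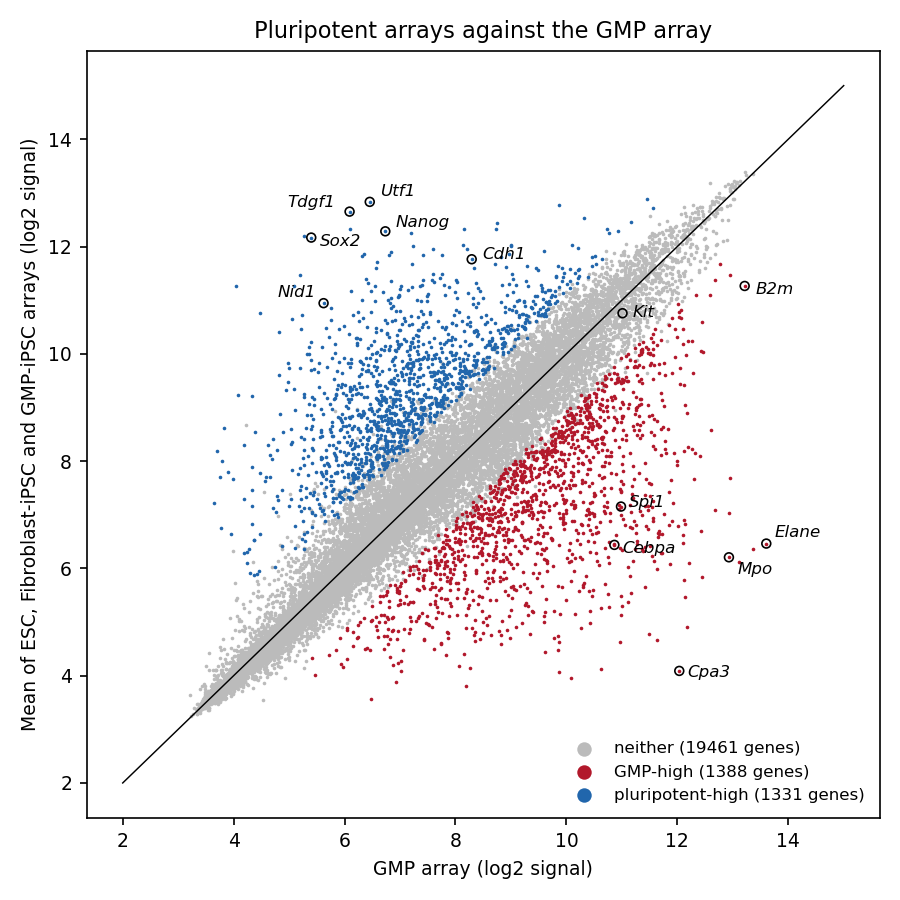
Each point is 1 of 22180 genes, with the GMP array on the x axis and the mean of the 3 pluripotent arrays on the y axis, both in log2 signal. Red points are the 1388 GMP-high genes, blue points the 1331 pluripotent-high genes and grey points the rest, and the line marks equal signal. Cpa3, Elane and Mpo lie far to the right at the low pluripotent level, Sox2, Tdgf1, Utf1 and Nanog far above the line, and Kit on it.

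Of the 15 genes furthest above all 3 lines in GMPs, 6 stand on the granule protein list and 2 on that of leukocyte surface proteins. The granule list also holds the membrane protein Ms4a3 but not Cpa3. Cpa3, a carboxypeptidase of mast cell granules, read 3.97 in ESCs, 4.19 in Fibroblast-iPSC, 4.10 in GMP-iPSC and 12.04 in GMPs, a smallest difference of −7.84. Elane, neutrophil elastase, read 6.48, 6.46 and 6.45 against 13.60 in GMPs. Mpo, myeloperoxidase, read 6.21, 6.23 and 6.18 against 12.93. The 3 lines agreed to within 0.22 in each of these genes, and MEFs were at the level of the lines (4.26, 6.69 and 6.37).

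Ctsg, the granule protease cathepsin G, was next to Cpa3 with a smallest difference of −7.20, before Elane at −7.13. Mpo stood at −6.70. Ly6c2, a surface antigen of monocytes and their precursors, stood at −6.95, and Igsf6 at −6.88. The rest of the 15 furthest genes were Clec12a, an inhibitory lectin receptor (−6.85), Atp8b4 (−6.65), Ms4a3, a membrane protein of GMPs (−6.58), Mmp8, the neutrophil collagenase (−6.58), Rgs18, a regulator of G-protein signalling in blood cells (−6.47), Tfec (−6.13), Csf2rb2, the IL-3 receptor beta chain (−6.12), S100a8, a calgranulin (−6.07), and Trem3 (−6.04). Near copies exist for Ly6c2 (Ly6c1) and Csf2rb2 (Csf2rb), so part of their signal may belong to the copy. Of 29 genes on the granule protein list, 26 were GMP-high and none pluripotent-high. Their median difference was −5.02, where that over all genes was −0.02. These lists were chosen with earlier results of these data known, and their counts are given as descriptions. Some genes stand on several lists, such as Epx and Prg2 on those of granule proteins and of mast cell, basophil and eosinophil markers.

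Upstream of the start of 3 of these granule genes stands the same short word. The 250 bases before the start of Elane, Mpo and Ctsg each hold AGGAAGT, the core that PU.1 reads, printed in capitals and searched on both strands. They were picked from the 15 furthest genes as examples that hold the word, and the lines read nearly the same low level in each.
Elane promoter, chr10:79886062-79886311 (+): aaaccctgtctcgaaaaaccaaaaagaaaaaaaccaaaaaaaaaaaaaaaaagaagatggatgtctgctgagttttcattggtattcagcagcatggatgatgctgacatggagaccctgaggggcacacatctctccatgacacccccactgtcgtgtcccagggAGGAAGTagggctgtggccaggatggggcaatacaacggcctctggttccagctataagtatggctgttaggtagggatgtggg
Mpo promoter, chr11:87793534-87793783 (+): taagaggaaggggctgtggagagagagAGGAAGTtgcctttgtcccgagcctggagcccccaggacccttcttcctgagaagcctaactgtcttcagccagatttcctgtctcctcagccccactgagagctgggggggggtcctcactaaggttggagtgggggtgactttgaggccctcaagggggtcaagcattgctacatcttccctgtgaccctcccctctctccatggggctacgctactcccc
Ctsg promoter, chr14:56102575-56102824 (−): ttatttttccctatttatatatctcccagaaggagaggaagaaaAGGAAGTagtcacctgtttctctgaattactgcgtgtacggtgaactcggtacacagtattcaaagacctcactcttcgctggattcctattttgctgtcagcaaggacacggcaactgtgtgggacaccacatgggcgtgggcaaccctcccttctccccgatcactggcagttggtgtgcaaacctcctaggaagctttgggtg

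The word begins 84 bases before the start of Elane, 223 before that of Mpo and 206 before that of Ctsg. It was found in 11 of 22 promoters of GMP-high granule genes (50%), in 153 of 1112 promoters of GMP-high genes (13.8%) and in 48 of 222 where all lines lay at least 3 log2 below GMPs (21.6%). Of all 16990 promoters matched, 7.61% held it, and of 1029 pluripotent-high promoters 6.12%. The related ETS core GAGGAA, which can overlap it, was in 41.9% of the promoters with at least 3 log2 against 22.7% of all, and the RUNX core TGTGGT in 22.1% against 12.1%. The C/EBP palindrome TTGCNNAA was in 14% against 9.11%. These shares describe letters in a fixed window, and whether any factor binds there was not measured. The GMP-high promoters with at least 3 log2 were also poor in CpG, with a median observed-to-expected ratio of 0.26 against 0.54 over all promoters, and none of the 22 granule promoters reached 0.6, a level that 45.5% of all promoters reached.

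The regulators of the myeloid programme were lower in the lines as well. Of 32 myeloid transcription factors, 24 were GMP-high and none pluripotent-high, with a median difference of −2.21. Spi1, the gene of PU.1, read 7.30, 7.19 and 6.96 in ESCs, Fibroblast-iPSC and GMP-iPSC, and 10.98 in GMPs. Cebpa, which is needed for the GMP to form, read 6.54, 6.47 and 6.30 against 10.86. In both genes the lines lay within 0.34 of each other, with MEFs slightly above them at 7.67 and 6.99.

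Cebpe, a later granulocytic factor, had a smallest difference of −5.11 and Gfi1, a transcriptional repressor needed for neutrophil differentiation, one of −4.19. Irf8, a factor of the monocyte branch, differed less (6.47, 6.41 and 6.39 against 8.31). Fli1, an ETS factor of blood and endothelium, had a smallest difference of −5.42 (6.64, 7.01 and 6.42 against 12.43), next in the list to Tfec (−6.13), and MEFs held an intermediate 9.32. Runx1 was at 11.49 in GMPs and 10.71 in MEFs, while the highest line read 7.92; it was picked after its values were seen.

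Of 29 growth factor and cytokine receptors, 21 were GMP-high and none pluripotent-high. Csf3r, the receptor for G-CSF, read 5.49, 5.65 and 5.59 in the lines and 10.23 in GMPs. Csf1r, the M-CSF receptor, read 6.39, 6.32 and 6.26 against 9.14, with MEFs at 7.83. The chemokine receptors Ccr2 (−4.45), Ccr1 (−4.37) and Cxcr4 (−3.89) lay on the same side.

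Kit, the stem cell factor receptor that marks GMPs, was a gene both cell types shared. It read 10.53, 11.09 and 10.65 in the lines and 11.01 in GMPs, so the ranges overlapped, and 6.65 in MEFs. Flt3 was low on the 4 arrays and in MEFs (5.61 to 5.83), as is usual for GMPs. Cd34, the sialomucin used to define GMPs, read 7.19, 7.22 and 7.36 in the lines, 10.11 in GMPs and 8.52 in MEFs.

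**Figure D2:**
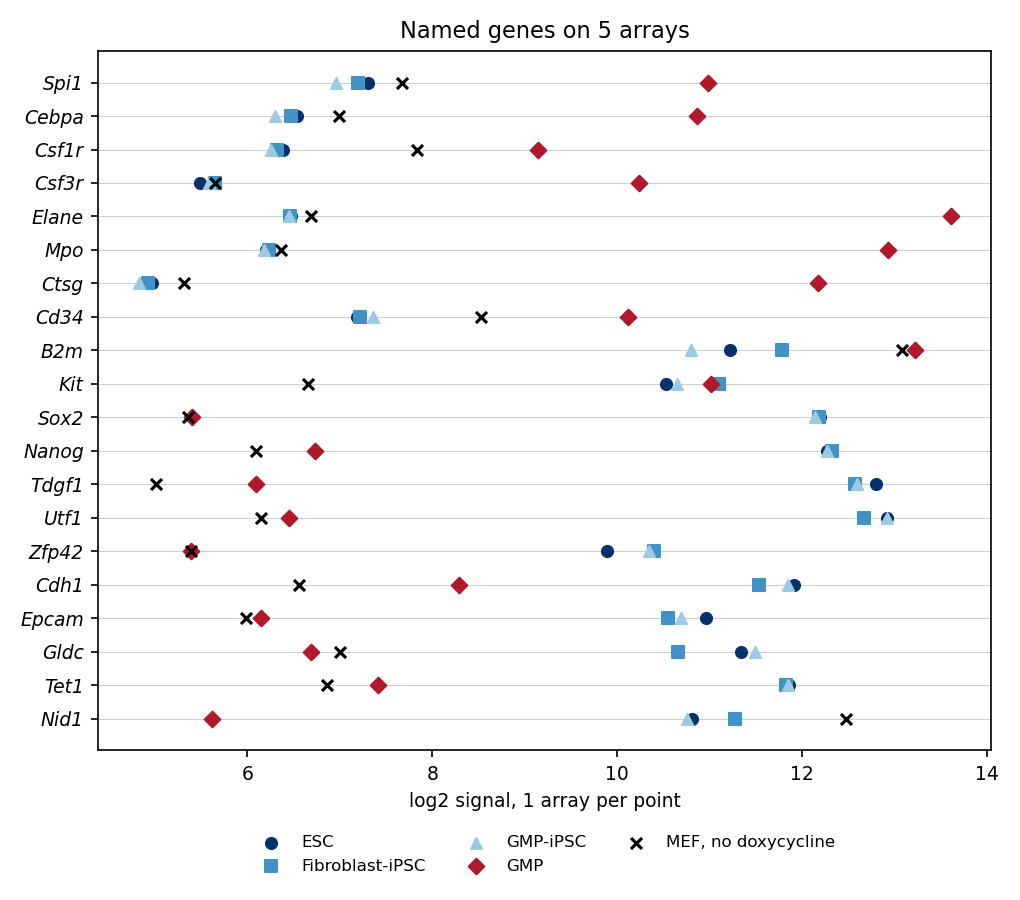
Values of 20 named genes in log2 signal on the x axis, with 1 array per point: ESC, Fibroblast-iPSC and GMP-iPSC in blues, GMP in red and MEF as a cross. The lines cluster within each gene, GMPs stand apart in all genes but Kit, and MEFs fall with the lines for Elane and Mpo, with GMPs for B2m and Sox2, and beyond the lines for Nid1.

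Proteins of the leukocyte surface and of signalling inside blood cells made up the broadest block. Of 35 genes for haematopoietic signalling and cytoskeleton, 33 were GMP-high, with a median difference of −3.89. Btk, a tyrosine kinase, read 5.23, 5.25 and 5.12 against 10.43 in GMPs, and Lcp2, an adaptor of immune receptors, 6.70, 7.03 and 6.66 against 12.01. Arhgef6 (−4.98), Pik3cg, a PI3-kinase of leukocytes (−4.83), and Dock8, an exchange factor for Cdc42 (−4.83), were next. Of 37 leukocyte surface proteins, 32 were GMP-high, with Ptprc, which encodes CD45, at 5.26, 5.42 and 5.10 against 10.62. By name family, 12 of 31 C-type lectin genes, 7 of 12 Toll-like receptor genes and 6 of 8 Fc receptor genes were GMP-high, and none of these families held a pluripotent-high gene.

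All 5 measured subunits of the phagocyte NADPH oxidase, which makes superoxide, were GMP-high, and 2 more of the list were not measured. Cybb, its catalytic subunit, read 5.46, 6.41 and 6.09 against 11.64. Cyba, its membrane partner, stayed well above the array median in the lines (9.60, 8.94 and 9.26 against 11.71). Rac2, the GTPase of the complex, had a smallest difference of −3.97, Ncf1 of −4.88 and Ncf4 of −4.28. Of 32 genes for innate sensing, 21 were GMP-high, among them Clec5a (−5.39), Naip2 (−4.34) and Casp1, the inflammatory caspase (−3.83). Sting1, the adaptor of cytosolic DNA sensing, read 6.46, 7.41 and 6.44 in the lines, 10.53 in GMPs and 10.54 in MEFs.

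Antigen presentation showed a partial difference. Of 21 genes, 11 were GMP-high, with a median difference of −1.24. B2m, the light chain of class I molecules, remained among the bright genes of the lines (11.22, 11.78 and 10.79) and was at 13.21 in GMPs and 13.08 in MEFs. H2-K1, a class I heavy chain, read 9.31, 8.51 and 8.70 against 11.50, and its close relatives in the genome make the probe set less certain. Tap2, a peptide transporter, read 6.20, 5.89 and 5.83 against 8.36. Of 30 interferon-response genes, 4 were GMP-high and 1, Xaf1 (8.12, 10.21 and 10.00 against 6.91), was pluripotent-high. These are 13.3% and 3.33% of the list, beside 6.26% and 6% of all genes.

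The GMP array was also read for markers of neighbouring blood lineages. Of 15 mast cell, basophil and eosinophil markers, 11 were GMP-high, and 10 lay at or above the array median in GMPs against 2 in every line. Epx, eosinophil peroxidase, read 11.86, Prg2, the eosinophil major basic protein, had a smallest difference of −5.52, Mcpt8, a basophil protease, read 10.76, and Ms4a2, a chain of the IgE receptor, 9.61. Of 19 macrophage and monocyte markers, 8 were GMP-high, with Mpeg1 at 9.28 and Adgre1 at 9.03, and 1, Apoe, was pluripotent-high (smallest difference 2.60). The mean of the list was 8.20 in GMPs against 6.63 to 6.84 in the lines. Of 14 erythroid and megakaryocyte markers, 4 were GMP-high (Gp9, Itga2b, Car1 and Pf4), and Gata1 lay just outside the rule (−0.99 as deposited, −1.10 after a further quantile normalization). Of 20 lymphoid markers, 2 were GMP-high, Gzmb (11.12) and Cd79b (9.46), and 1, Cd3e, was pluripotent-high (smallest difference 1.25). In GMPs 5 of the 20 lay at or above the array median, against 7 to 8 in the lines. The GMP-high share of the lymphoid list, 10%, was near the 6.26% of all genes. How far such cells in the sorted sample account for the GMP-high genes was not tested.

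**Figure D3:**
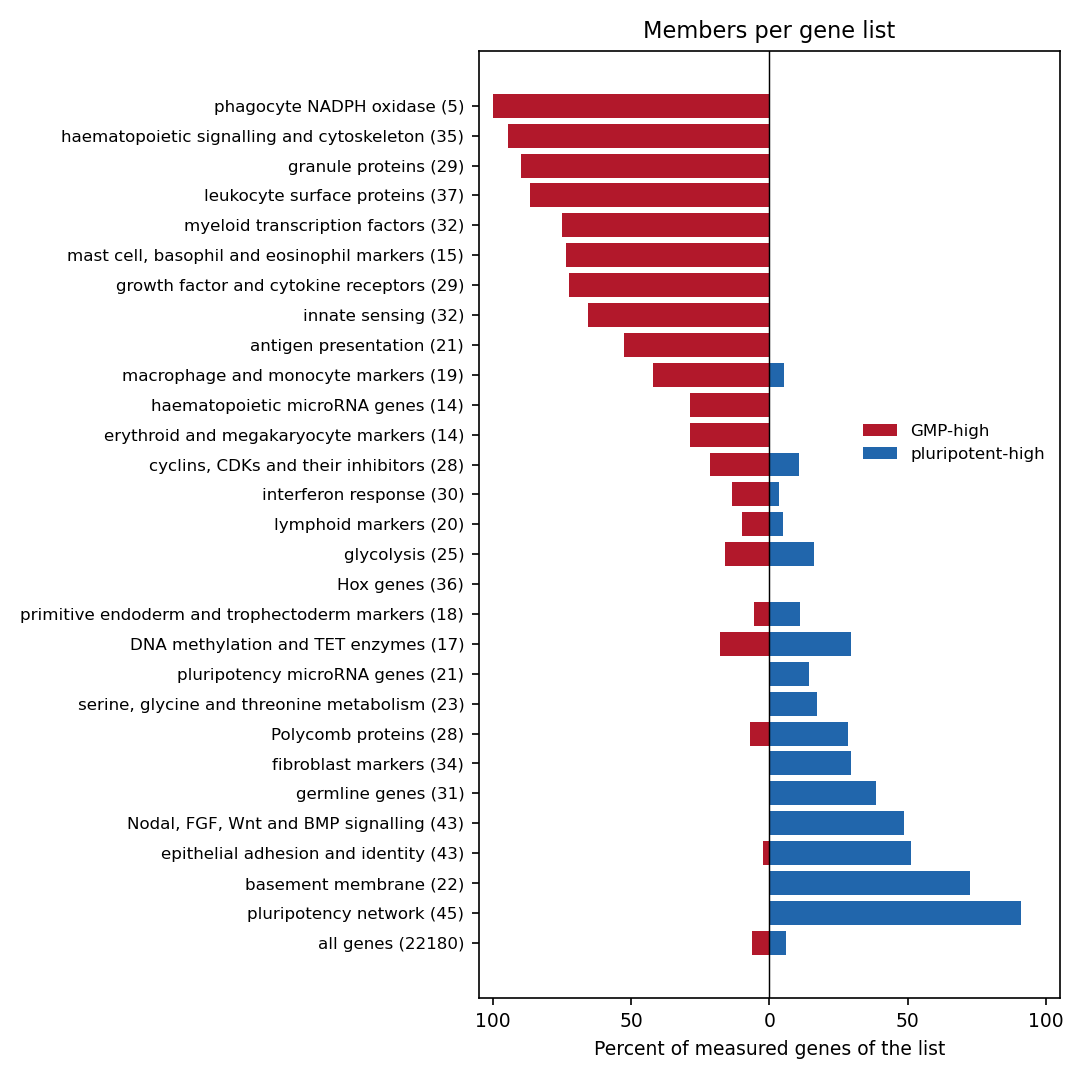
For each gene list (number of measured genes in brackets), bars to the left give the percent of its genes that were GMP-high and bars to the right the percent pluripotent-high, with all 22180 genes at the bottom (6.26% and 6%). The blood lists lie to the left, from 100% of the 5 measured NADPH oxidase genes. The pluripotency network lies furthest to the right with 91.1%.

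On the other side, 7 of the 15 genes that stood furthest above GMPs in all 3 lines were of the pluripotency network. Sox2, one of its core factors, read 12.19 in ESCs, 12.18 in Fibroblast-iPSC, 12.14 in GMP-iPSC and 5.40 in GMPs, a smallest difference of 6.74. Tdgf1, the Nodal co-receptor, read 12.80, 12.57 and 12.59 against 6.09. Utf1, a chromatin protein of pluripotent cells, read 12.92, 12.66 and 12.92 against 6.45. The lines lay within 0.26 of each other in these genes, and MEFs were as low as GMPs (5.36, 5.02 and 6.15).

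Nanog, a core factor, read 12.26, 12.32 and 12.27 against 6.73, and Nr0b1, an orphan nuclear receptor gene on the X chromosome, 12.46, 12.13 and 12.39 against 6.09. The zinc-finger genes Zfp640 (6.71), Zfp981 (6.67) and Rex2 (5.86), which have close relatives in the genome, were among the furthest. So were Pla2g1b, a secreted phospholipase (6.08), Fbxo15, an F-box gene of embryonic cells (5.38), Dppa2, an activator of early embryonic genes (5.18), and Triml1 (5.12). Hspb1, a small heat shock protein (5.18), Slc38a4, an amino acid transporter (5.78), and Nid1, a basement membrane protein (5.13), completed the 15. These last 3 were also high in MEFs, at 9.96 for Hspb1 (10.24 in the lowest line), 11.41 for Slc38a4 (10.87) and 12.48 for Nid1 (10.75).

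Of 45 genes of the pluripotency network, 41 were pluripotent-high and none GMP-high, with a median difference of 3.28. The other 4 were Gbx2, Dppa5a, Dppa3 and Pou3f1. Esrrb, a naive-state factor, read 8.38, 9.40 and 9.04 against 6.50, and Lin28a, an RNA-binding protein, 10.85, 10.08 and 10.68 against 8.01. Pou5f1, which encodes Oct4, had a smallest difference of 1.14 (8.13, 8.54 and 8.96 against 6.99). This is the reading of 1 probe set, and probe sets with several symbols were not used. How well it measures the size of the Oct4 difference was not tested.

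Sequence letters upstream of pluripotency genes were looked at in the same way. The Nanog promoter is printed because it holds the octamer-like word TTTGCAT and the SOX core ACAATG 1 base apart, and that of Zfp42, a classical marker of embryonic stem cells (9.89, 10.40 and 10.34 against 5.39), because it holds the octamer-like word.
Nanog promoter, chr6:122707239-122707488 (+): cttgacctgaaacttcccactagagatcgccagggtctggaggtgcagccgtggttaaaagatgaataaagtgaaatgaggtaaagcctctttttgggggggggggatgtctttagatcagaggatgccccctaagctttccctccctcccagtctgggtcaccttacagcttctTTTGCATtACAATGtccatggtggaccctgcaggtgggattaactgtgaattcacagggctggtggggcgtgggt
Zfp42 promoter, chr8:43307010-43307259 (−): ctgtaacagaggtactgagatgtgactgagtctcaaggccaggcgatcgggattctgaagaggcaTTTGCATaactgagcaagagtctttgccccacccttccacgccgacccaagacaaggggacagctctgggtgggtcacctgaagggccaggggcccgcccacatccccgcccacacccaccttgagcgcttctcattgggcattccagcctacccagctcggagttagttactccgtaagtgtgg

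The octamer-like word was in 4 of 28 promoters of pluripotent-high network genes (14.3%), in 4.96% of all pluripotent-high promoters, in 3.15% of GMP-high ones and in 3.82% of all promoters. The SOX core was in 6.12% of pluripotent-high promoters and 9.10% of all. Pluripotent-high promoters had a median CpG ratio of 0.67, above the 0.54 of all promoters, and 57.6% reached 0.6. Where all lines lay at least 3 log2 above GMPs, the median was 0.58 and 45.9% reached 0.6.

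Germline genes, many of which are silenced by methylation of CpG-rich promoters in somatic cells, formed a smaller group. Of 31, 12 were pluripotent-high and none GMP-high. Zfp42, the furthest of these 12, is counted here and in the pluripotency network. Mael, a protein of the piRNA pathway, read 9.18, 9.75 and 9.89 against 4.82 in GMPs and 4.73 in MEFs. Dazl, a germ cell RNA-binding protein, read 7.70, 8.34 and 9.02 against 5.06, and Ddx4, a germ cell helicase, 8.94, 6.96 and 7.22 against 4.66, so the lines differed by up to 1.98. Hormad1, a meiotic chromosome protein, read 6.53, 6.84 and 6.89 against 3.77. The promoters of Mael and Hormad1 hold the E-box CACGTG, found in 4 of 10 promoters of pluripotent-high germline genes and in 6.86% of all, and 8 of these 10 promoters (80%) reached a CpG ratio of 0.6.
Mael promoter, chr1:166238745-166238994 (−): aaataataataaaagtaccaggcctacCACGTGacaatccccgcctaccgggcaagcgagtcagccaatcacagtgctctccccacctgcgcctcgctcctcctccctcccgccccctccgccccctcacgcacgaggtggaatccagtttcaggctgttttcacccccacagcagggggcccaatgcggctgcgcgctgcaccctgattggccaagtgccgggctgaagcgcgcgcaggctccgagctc
Hormad1 promoter, chr3:95559427-95559676 (+): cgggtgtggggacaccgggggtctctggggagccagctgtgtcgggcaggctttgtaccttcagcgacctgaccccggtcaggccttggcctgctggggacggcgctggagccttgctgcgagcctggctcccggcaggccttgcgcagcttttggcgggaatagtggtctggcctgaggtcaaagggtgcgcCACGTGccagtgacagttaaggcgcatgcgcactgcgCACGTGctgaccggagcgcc

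The lines also differed from GMPs in the genes of a cell sheet. Of 43 genes for epithelial adhesion and identity, 22 were pluripotent-high and 1 GMP-high. Epcam, an epithelial adhesion molecule, read 10.96, 10.54 and 10.69 against 6.15 in GMPs. Cdh1, E-cadherin, read 11.91, 11.53 and 11.85 against 8.29, while MEFs were lower still at 6.56. Tjp1, a tight junction scaffold, read 10.52, 10.31 and 10.42 against 6.57, and MEFs shared the high level (10.27). Cldn4 (2.68) and Cdh3 (2.97) were pluripotent-high too, and of 21 ephrin and Eph receptor genes, 8 were pluripotent-high and none GMP-high.

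Of 22 basement membrane genes, 16 were pluripotent-high. Nid1 read 10.81, 11.27 and 10.75 against 5.62, Lamb1, a laminin chain, 9.47, 9.25 and 9.42 against 5.93, and Nid2 10.99, 10.85 and 11.11 against 7.38. MEFs were higher than every line for Nid1 and Lamb1 (12.48 and 10.81) but not for Nid2 (9.92). Lama1, another laminin chain, was low in both starting cells (6.09 in GMPs and 6.68 in MEFs against at least 9.09 in the lines). Fibroblast markers moved with this group only in part. Of 34, 10 were pluripotent-high, with a list mean of 8.07 in ESCs, 8.93 in Fibroblast-iPSC and 7.47 in GMP-iPSC against 7.04 in GMPs and 10.63 in MEFs. Without the GMP-iPSC array, 16 of the 34 would be counted, while the basement membrane count stayed at 16 whichever line was left out. Snai2 (8.34, 9.52 and 7.47) and Col1a1 (9.52, 10.70 and 8.75) ran highest in the Fibroblast-iPSC line and lowest in the GMP-iPSC line, while Vim, Thy1 and Col3a1 had lines on both sides of GMPs. The part of fibroblast cells or feeders in these values was not tested.

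Ligands and effectors of Nodal, FGF, Wnt and BMP signalling followed, with 21 of 43 genes pluripotent-high and none GMP-high. Nodal, Lefty1, Lefty2, Fgf4, Gdf3 and Tdgf1 are counted here and in the pluripotency network. Fgf4, an autocrine growth factor of embryonic cells, read 11.78, 12.01 and 12.08 against 7.59. Bmp4 read 9.85, 10.53 and 11.01 against 5.91 and was as high in MEFs (9.89). Gdf3, a Nodal-like ligand, had a smallest difference of 3.85, and Tcf7l1, the repressor of Wnt targets, one of 3.76. Of 18 primitive endoderm and trophectoderm markers, 2 were pluripotent-high (11.1%, beside 6% of all genes). On the other side, 1 marker, Dab2, was GMP-high (5.56%, beside 6.26%, with a smallest difference of −1.21). Gata6, a defining factor of primitive endoderm, was at 6.59 to 6.82 in the lines.

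Chromatin genes lay on both sides. Of 17 genes for DNA methylation and TET enzymes, 5 were pluripotent-high and 3 GMP-high. These are 29.4% and 17.6% of the list, beside 6% and 6.26% of all genes. Tet1, a 5-methylcytosine oxidase, read 11.86, 11.83 and 11.85 against 7.41, whereas Tet3, a relative, read 7.53, 8.46 and 8.20 against 10.20. Dnmt3l (9.97, 10.76 and 10.59 against 7.0) and Dnmt3b (10.89, 9.91 and 10.48 against 8.15), a regulator and an enzyme of de novo methylation, and Zfp57, a guardian of imprints (11.39, 11.77 and 11.61 against 8.33), lay higher in the lines.

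Of 28 Polycomb proteins, 8 were pluripotent-high (28.6%, beside 6% of all genes). Another 2 were GMP-high (7.14%), a share near the 6.26% of all genes. Cbx7, the chromodomain subunit of embryonic stem cells, read 11.36, 10.59 and 11.16 against 8.02, and Phc1 12.27, 11.70 and 11.90 against 8.21. Pcgf5 (7.62, 7.04 and 7.52 against 9.44) and Yaf2 (8.30, 8.32 and 8.38 against 10.03) lay on the GMP side, and Pcgf2 had a smallest difference of 2.14. No Hox gene of 36 was past the rule in either direction, Hoxa9 differing by −0.54 and Hoxb4 by −0.73.

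Metabolism and the cell cycle differed in single genes more than in whole lists. Of 23 genes for serine, glycine and threonine metabolism, 4 were pluripotent-high and none GMP-high. Gldc, glycine decarboxylase, read 11.34, 10.65 and 11.49 against 6.69, Amt, its partner in the glycine cleavage system, 10.23, 10.01 and 10.00 against 6.71, and Cth 10.43, 9.46 and 9.89 against 6.38. Of 25 glycolysis genes, 4 lay on each side. Hk3, the hexokinase of myeloid cells, read 6.60, 6.66 and 6.61 against 10.89, and Slc2a3, a glucose transporter, 11.99, 11.91 and 12.11 against 9.0.

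Of 28 cyclins, CDKs and their inhibitors, 3 were pluripotent-high and 6 GMP-high. Ccnd1, cyclin D1, read 11.11, 11.43 and 11.30 against 7.79, while Ccnd2, cyclin D2, read 9.45, 10.79 and 9.58 against 11.95 and its partner Cdk6 9.54, 9.0 and 9.71 against 12.12. Ccnd1 and Ccnd2 thus stood in opposite order, while Ccnd3, the other D-type cyclin, was neither, with a mean difference of 0.10. Rbl2, a relative of the retinoblastoma protein, read 7.89, 8.42 and 8.30 against 10.64, and Ccne1, cyclin E1, 11.07, 10.85 and 11.03 against 9.68.

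By position, the X chromosome held 80 pluripotent-high genes of 905 measured (8.84%) and 39 GMP-high genes (4.31%). Chromosome 19 showed the reverse, with 25 pluripotent-high (3.44%) and 61 GMP-high (8.40%) of 726. Xist, the RNA that silences an X chromosome in female cells, read 7.16, 9.49 and 7.79 in the lines against 12.31 in GMPs and 11.86 in MEFs. The Y-linked Eif2s3y read 6.18, 5.93 and 5.03 in ESCs, Fibroblast-iPSC and GMP-iPSC against 5.0 in GMPs, and Uty 6.11, 5.36 and 4.66 against 4.70. Kdm5d, also Y-linked, had lines on both sides of GMPs (4.50, 4.77 and 4.41 against 4.52). The sex of the cells is not in the labels, so the X-linked counts and these levels cannot be told apart from a difference in sex between samples. Among zinc-finger genes, 47 of 398 were pluripotent-high and 5 GMP-high, and of 1105 olfactory receptor genes none was a member.

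The 3 lines were closer to each other than to either starting cell. Over all genes the correlation of their log2 values was between 0.984 and 0.990 for pairs of lines, against 0.886 to 0.889 with GMPs and 0.902 to 0.922 with MEFs, as a description over genes that share each array. A range of at least 1 log2 among the lines was found in 81 GMP-high genes (5.84%) and 176 pluripotent-high genes (13.2%), with 3.67% of all genes. The highest of the 3 lines was Fibroblast-iPSC in 633 of the GMP-high genes (45.6%, with 36.7% of all genes), ESC in 472 (34.0%, with 31.6%) and GMP-iPSC in 283 (20.4%, with 31.6%). These arrays entered the rule, so the counts are a description, and over all genes the correlation with GMPs was 0.889 for ESC and 0.886 for both iPSC lines.

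Few genes stood with GMPs in 1 line only. In 8 genes, 2 lines lay at least 3 log2 above GMPs and the other line less than 1 log2 above them, and none was found in the opposite direction. In 7 of the 8 it was ESCs that lay near GMPs. Mest, an imprinted gene, read 6.31 in ESCs against 9.85 and 10.64 in the iPSC lines and 5.82 in GMPs, and Gm364 read 5.03 against 10.62 and 10.36, with 4.22 in GMPs. The others were Efhc2, Fthl17b, Nxf3, Slc13a5 and Usp26. The eighth was AF357355, which was low in the GMP-iPSC line (4.47 against 8.60 in ESCs and 7.88 in Fibroblast-iPSC).

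The members were then placed by their level in MEFs. The comparison of the lines with MEFs shares the 3 pluripotent arrays with the rule, so it is given as levels only. Of the GMP-high genes, 877 (63.2%) were within 1 log2 of the pluripotent mean in MEFs and nearer to it than to GMPs, and 367 (26.4%) were within 1 log2 of GMPs. Of the pluripotent-high genes, 638 (47.9%) were near the GMP value in MEFs, 398 (29.9%) near the pluripotent mean, and 191 (14.4%) lay beyond the lines. The first set holds Elane, Spi1 and Btk, and the set low in both starting cells holds Sox2, Nanog, Epcam and Gldc. Among GMP-high genes that MEFs shared, Parp8 read 11.55 in GMPs and 11.02 in MEFs against at most 7.89 in the lines, and Anxa3, an annexin of neutrophils, 11.79 and 11.82 against 8.89; both were picked after their values were seen.

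The fibroblast cultures carry readings that the rule did not use, and the members were followed through them. In MEFs, 647 of 1331 pluripotent-high genes (48.6%) were within 1 log2 of the pluripotent mean or above it, where 92.3% of all genes were. With OKSM alone the count was 743 on day 2 and 804 (60.4%) on day 12. With AGi it was 732 on day 2, 844 on day 6, 981 on day 10 and 1143 (85.9%) on day 12. Over all genes the share on day 12 was 94.5% with OKSM and 98.4% with AGi. The arms were alike on days 2 and 4 and apart from day 6 on, the AGi arm being higher. The Thy1+ cells sorted on day 3 of OKSM had 716.

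Of the GMP-high genes, 312 (22.5%) were at least 1 log2 above all 3 lines in MEFs, where 6.31% of all genes were. The count was 326 on day 2 and 354 on day 12 with OKSM alone, and 296 and 171 (12.3%) with AGi, and over all genes the share on day 12 was 6.99% and 3.18%. It was lower with AGi on each of the 6 days, the closest being day 2.

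**Figure D4:**
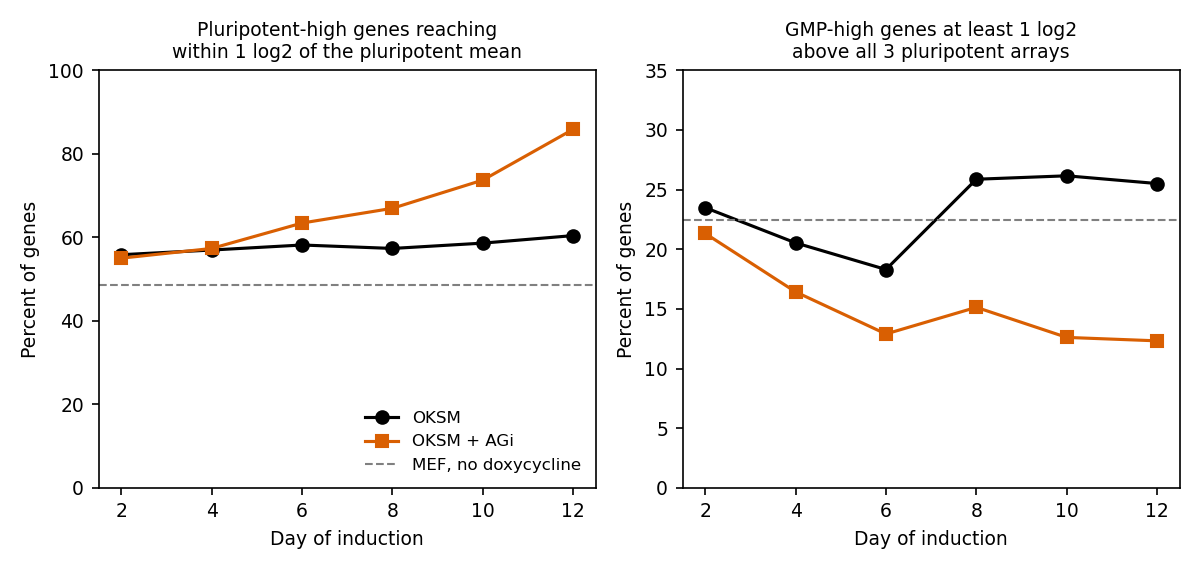
Left, the percent of 1331 pluripotent-high genes within 1 log2 of the pluripotent mean or above it. Right, the percent of 1388 GMP-high genes at least 1 log2 above all 3 pluripotent arrays. The x axis is the day of induction, with 1 array per point, black circles for OKSM, orange squares for OKSM with AGi and a dashed line for MEFs. On the left the AGi arm reaches 85.9% on day 12 against 60.4%, and on the right it ends at 12.3% against 25.5%.

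Whether AGi changed the members was tested on the 12 arrays of the time course, none of which entered the rule. The day was a block, and since no arm and day was repeated, the error is the spread between days, which may be technical. Over all 22180 genes, limma with Benjamini-Hochberg adjustment at 0.05 and no filter on low values called 11.8% higher and 11.9% lower with AGi. Of the GMP-high genes, 82 were higher (5.91%) and 381 lower (27.4%). Of the pluripotent-high genes, 292 were higher (21.9%) and 302 lower (22.7%).

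With the filter of the planned fit, which leaves 13865 genes, 19.6% of genes were higher and 19.3% lower. Of the GMP-high genes, 1085 entered it, with 84 higher and 394 lower, and of the pluripotent-high genes 1217, with 309 higher and 312 lower. A gene could enter this fit through the arm where it was high. The filtered counts here and below are therefore given as descriptions. The hybridisation controls themselves read 0.06 to 0.26 higher with AGi. Tested against the largest of these differences instead of 0, 3.09% of genes were higher and 5.44% lower, and the members came to 20 and 92 for GMP-high and 91 and 114 for pluripotent-high. With the day block left out, the counts were 49 and 237, and 199 and 219. Without day 8 or day 10 the count of lower GMP-high genes was 258 or 261, that of higher GMP-high genes 53 or 54, and that of higher pluripotent-high genes 193 or 192; without day 6, 54 GMP-high genes were higher.

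The members parted by where MEFs began. Of 638 pluripotent-high genes that MEFs held near the GMP level, 213 were higher with AGi (33.4%) and 26 lower. Of 191 that MEFs held above the lines, 6 were higher and 131 lower (68.6%). Of 367 GMP-high genes that MEFs shared with GMPs, 9 were higher and 193 lower (52.6%), and of 877 that MEFs already held near the lines, 60 were higher and 134 lower (15.3%). Of 398 pluripotent-high genes that MEFs held near the lines, 41 were higher (10.3%) and 130 lower (32.7%). Of 39 GMP-high genes that MEFs held below the lines, 10 were higher (25.6%) and 3 lower. Higher calls outnumbered lower ones in the first and the last of these sets and lower calls outnumbered higher ones in the others, beside 11.8% and 11.9% over all genes.

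**Figure D5:**
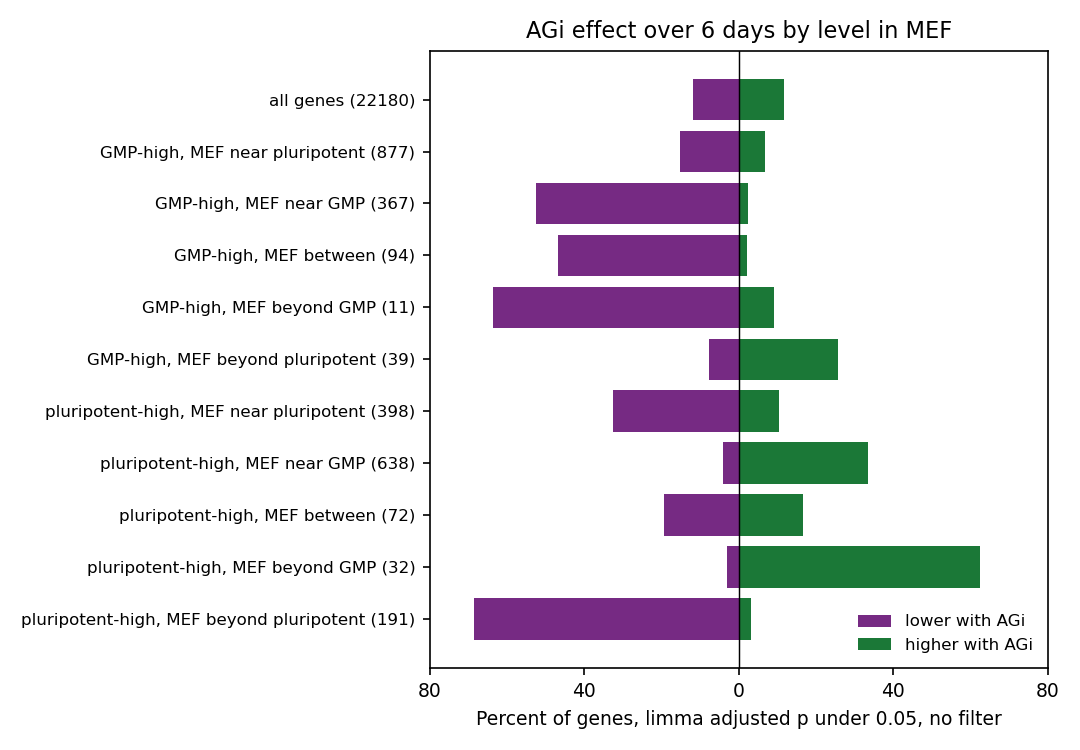
Bars give the percent of genes called lower (left, purple) or higher (right, green) with AGi by limma at an adjusted p of 0.05 over 6 days, with no filter on low values, for members grouped by their level in MEFs (number of genes in brackets) and for all 22180 genes. Pluripotent-high genes that MEFs hold near GMPs lean to the right (33.4%), those that MEFs hold above the lines lean to the left (68.6%), and GMP-high genes that MEFs share lean to the left (52.6%). The 39 GMP-high genes that MEFs hold below the lines lean to the right (25.6%).

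In the filtered fit, fibroblast markers were lower with AGi alongside, 27 of 34 with 1 higher. Over all 13865 genes in that fit, 19.3% were lower and 19.6% higher. The mean of the fibroblast list ran from 9.60 to 10.67 in the OKSM arrays and from 8.73 to 9.89 in the AGi arrays. Of 19 macrophage and monocyte markers, 17 were in the fit, with 3 higher, a share near that of all genes in it, and 7 lower. Their mean ran from 6.73 to 7.93 with OKSM and from 6.73 to 7.41 with AGi, and 11 to 17 and 10 to 17 of them lay at or above the array median. The part of either cell type in the AGi differences of members was not tested.

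Among named pluripotent-high genes, Nanog was higher with AGi on 6 of 6 days, and the difference was 2.17 ± 0.48 log2 (SE of the limma fit over n = 6 days, adjusted p = 0.0106). It read 6.24, 7.08, 7.64, 7.56, 8.60 and 9.95 on days 2 to 12 with OKSM, and 6.36, 7.76, 10.70, 11.41, 11.78 and 12.08 with AGi, the last close to the 12.26 of ESCs. Epcam was higher by 2.40 ± 0.47 (adjusted p = 0.0066) on 5 of 6 days, and Gldc by 1.53 ± 0.33 (adjusted p = 0.0091) on 5 of 6 days. These 3 genes also passed against the largest control difference (adjusted p from limma of 0.0367, 0.0229 and 0.0371), and none of them passed with the day left out of the model (0.119, 0.0561 and 0.0539).

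Mir290a read 4.07 to 5.83 with OKSM and 9.63 on day 12 with AGi, a difference of 1.91 ± 0.56 (limma adjusted p = 0.0287, higher on 4 of 6 days). No OKSM array of Mir290a reached the array median. It entered the filtered fit only through the AGi arrays of days 8, 10 and 12, so its p is given as a description. Tdgf1 was higher by 2.44 ± 0.75 (limma adjusted p = 0.0350) and Tet1 by 1.0 ± 0.27 (limma adjusted p = 0.0204). For Mir290a, Tdgf1 and Tet1 the limma adjusted p against the largest control difference was 0.0959, 0.108 and 0.103. Mir290a and Tdgf1 lost the call without any one of days 6, 8, 10 and 12 (limma adjusted p up to 0.0876 and 0.106), and Tet1 without day 8 or day 10 (up to 0.0624). Kit, the gene shared by lines and GMPs and low in MEFs, was higher by 1.32 ± 0.25 on 6 of 6 days (limma adjusted p = 0.0054). With the day left out of the model none of these 4 genes passed (limma adjusted p of 0.0927 for Mir290a, 0.129 for Tdgf1, 0.259 for Tet1 and 0.129 for Kit).

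Among named GMP-high genes, Cd34 read 8.52 in MEFs and between 11.49 and 12.05 in all 6 OKSM arrays, above the 10.11 of GMPs, and between 9.02 and 11.34 with AGi, a difference of −1.70 ± 0.33 (limma adjusted p = 0.0064, lower on 6 of 6 days). Cxcr4 was lower by −1.36 ± 0.13 (limma adjusted p = 0.0008) and Fli1 by −0.85 ± 0.09 (limma adjusted p = 0.0009), both on 6 of 6 days. All 3 passed against the largest control difference, and Fli1 lost the call with the day left out of the model (limma adjusted p = 0.0541). Csf1r (−0.63 ± 0.12, limma adjusted p = 0.0059) and Spi1 (−0.37 ± 0.12, limma adjusted p = 0.0406) did not (limma adjusted p = 0.0760 and 0.683 there). Csf1r lost the call with the day left out of the model (limma adjusted p = 0.0896), and Spi1 lost the call without day 8, 10 or 12 (up to 0.121). Spi1 read from 7.08 to 7.76 with OKSM and from 6.94 to 7.36 with AGi, against 7.67 in MEFs.

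Pluripotent-high genes that MEFs also read high were more often lower than higher with AGi (130 against 41 near the lines, 131 against 6 above them). Snai2, a mesenchymal repressor, was lower with AGi by −1.20 ± 0.11 (limma adjusted p = 0.0008) and Bmp4 by −0.96 ± 0.09 (limma adjusted p = 0.0006), both on 6 of 6 days. Nid1 was lower by −0.84 ± 0.19 (limma adjusted p = 0.0107) and reached 11.77 on day 12, against 11.84 with OKSM and 10.75 to 11.27 in the lines, and it did not pass against the largest control difference (limma adjusted p = 0.0749). Cdh3, P-cadherin, was higher by 1.07 (limma adjusted p = 0.0037, 6 of 6 days) and Hspb1 by 0.62 (limma adjusted p = 0.0409, 5 of 6 days), though MEFs held both near the lines. Bmp4 lost the call with the day left out of the model (limma adjusted p = 0.0536). B2m, GMP-high and bright in MEFs, differed by −0.27 ± 0.08 (limma adjusted p = 0.0312), about the size of the largest control difference, and lost the call without any one of days 4 to 12 (limma adjusted p up to 0.0899) or with the day left out of the model (0.0595).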

How the data were processed

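RNA of 18 mouse samples was extracted with an RNeasy kit and hybridised to Affymetrix arrays (labels' protocols). The values used are the authors' log2 signals, 1 per probe set and array. According to the submitters' processing notes they come from Expression Console, Affymetrix software, by RMA; its settings, its version and a genome build were not found in the sources used here.

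Of 41345 probe sets, 23521 carried 1 symbol, updated through the RefSeq table of GRCm38.p6, and 1814 with several symbols were not named. Where a gene had several probe sets, the one with the highest mean over all arrays stood for it, which gave 22180 genes. The rule used 4 arrays and was described by size. The AGi effect was fitted with limma 3.58.1 in R 4.3.3 (lmFit, eBayes, Benjamini-Hochberg, threshold 0.05, arm plus day, 5 residual degrees of freedom) on 13865 genes that reached the array median on at least 3 of 12 arrays, and again with no filter. The number of arrays limits the precision. On simulated arrays with 200 changed genes among 13865, 56.7% of changes of 0.5 log2, 86.6% of 1 and 98.5% of 2 were recovered, with 7 unchanged genes called.

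Promoters are the 250 bases before the first start listed per gene in the RefSeq table (GRCm38.p6), found for 16990 genes, and motifs were searched on both strands. Named genes were the 15 furthest members on each side (without small nucleolar RNAs and placeholder names), up to 5 per list over 29 lists, key genes and the 3 genes on each side of the 1 log2 edge; microRNA members and the genes said to be picked later came in addition. The members and lists were chosen with earlier results of these data known. Alternatives were another normalization, probe set rules, thresholds, centring, filters, day terms, variance models and leaving out each line or day.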

Additional observations from a re-analysis of the deposited data

Results flagged for a closer look

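Among 24 sets of 6 days examined, 1 held a day far from the others, and chance alone gives about 5% of such sets. The AGi-minus-OKSM difference of Cdh1, E-cadherin and a pluripotent-high gene, was −0.28 log2 on day 2, while the other 5 days lay between 1.81 and 2.97. The gap was 0.644 of the whole range, above the 95% critical value for 6 values. Cdh1 was higher with AGi by 2.10 ± 0.40 (limma SE, n = 6 days, adjusted p = 0.0061), and the limma adjusted p lay between 0.0002 and 0.025 when any one day was left out.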

How the results depend on the processing

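The count of GMP-high genes was 1458 to 1521 when 1 line was left out and 584 at a threshold of 2 log2, and that of pluripotent-high genes 1453 to 1540 and 511. Under the other alternatives run for these 2 counts (normalization, probe set rules, mean of the lines, a filter on low values, centring) they stayed within 1.5 times the reported count. Leaving out 1 line gave 10 to 16 pluripotent-high fibroblast markers and 0 to 1 Hox genes. The AGi counts that follow use the filtered fit, which a gene could enter through the arm where it was high. Leaving out 1 day gave 53 to 104 higher and 258 to 400 lower GMP-high genes, and 192 to 340 higher and 252 to 332 lower pluripotent-high genes. With the replicate block of day left out, 49 and 199 were higher and 237 GMP-high genes lower, which is more than 1.5 times fewer; the 219 lower pluripotent-high genes stayed within that bound. Against the largest control difference, 20 and 91 were higher and 92 and 114 lower. The cause of these changes was not tested. Of 223 comparisons of these results with an alternative, 205 stayed within 1.5 times, and of 352 for single named genes, 344 kept their side of 1 log2 and none reversed; the others were Slc2a1 (0.83 with the mean of its probe sets), Mir221, Gata1, Socs3 and 4 genes at the edge of the rule. With 1 array per condition and low readings near background, small differences of dim genes cannot be resolved.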

Other observations

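Some families outside the lists were counted as well, beside 6.26% GMP-high and 6% pluripotent-high over all genes. Of 78 interleukin and interleukin receptor genes, 17 were GMP-high and 1 pluripotent-high, and of 48 chemokine and chemokine receptor genes, 7 and none. Of 91 surface genes named by CD number, 25 were GMP-high and 6 pluripotent-high. Solute carriers were evenly split, with 31 of 361 on each side, and of 63 cadherin and protocadherin genes 3 were pluripotent-high, a share near that of all genes, and none GMP-high.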
